A study of Homo sapiens with 4 samples.

Results

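H3K4me3 peaks that lie across exons of 2 or more genes were described in RS4;11 and THP-1 leukemia cells. A peak was taken when its file marked an exon of at least 2 different gene symbols, and it was left out when every further symbol was a microRNA or small nucleolar RNA gene (MIR or SNOR). This gave 1246 of 24212 H3K4me3 peaks in RS4;11 cells (5.15%, with a 95% Wilson interval of 4.87 to 5.43%) and 1200 of 26523 in the THP-1 line (4.52%, 4.28 to 4.78%). Of the peaks on any exon, they made up 11.0% of 11308 (RS4;11) and 9.54% of 12576 (THP-1). The MIR and SNOR rule left out 55 peaks of the first line and 50 of the second.

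The study mapped the histone mark H3K4me3 and the protein WDR5 by ChIP-seq in both lines, with no replicates of the 1 sample for each antibody and line. The RS4;11 line comes from acute lymphoblastic leukemia of B-cell precursors and the THP-1 line from monocytic acute myeloid leukemia, both with a rearranged MLL gene, and no treatment is named in the labels. The type of leukemia follows the paper, because the labels call the RS4;11 H3K4me3 sample myeloid and the THP-1 WDR5 sample lymphoblastic. Each group is 1 sample of an established line, so every interval and p-value here is over peaks and covers no variation between cultures.

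H3K4me3 is placed on nucleosomes around the start sites of genes in use by the SET1 and MLL methyltransferases, which share WDR5 as a core subunit. Many human genes lie head-to-head, on opposite strands with their start sites close together, so that a single CpG-rich promoter serves both. Genes of DNA repair and of the mitochondrion are well-known users of such divergent promoters.

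The sequence between the start sites is shown for 5 head-to-head pairs that lay in a single peak in both lines. The first 2 are textbook divergent pairs with no annotated exon between the genes, and the other 3 held the most kinds of motif among such pairs. All are from GRCh37, the build of the files (hg19), on the plus strand, read from the start of the minus-strand gene to the start of the plus-strand gene. Capitals mark matches on either strand to the GC box (GGGCGG), the CCAAT box (CCAAT), the ETS motif (CCGGAAG), the NRF1 motif (CGCATGCG), the YY1 motif (AAGATGGC), TATAAA, the CREB motif (TGACGTCA) or the palindrome CTCGCGAG.
AFMID/TK1: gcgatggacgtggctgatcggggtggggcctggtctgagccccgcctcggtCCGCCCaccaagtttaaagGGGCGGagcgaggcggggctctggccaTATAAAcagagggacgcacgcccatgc
MRPS12/SARS2: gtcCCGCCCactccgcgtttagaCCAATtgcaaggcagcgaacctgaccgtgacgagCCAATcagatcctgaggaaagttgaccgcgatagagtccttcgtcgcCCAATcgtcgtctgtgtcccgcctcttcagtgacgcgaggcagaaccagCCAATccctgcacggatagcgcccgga
GTF3C1/KIAA0556: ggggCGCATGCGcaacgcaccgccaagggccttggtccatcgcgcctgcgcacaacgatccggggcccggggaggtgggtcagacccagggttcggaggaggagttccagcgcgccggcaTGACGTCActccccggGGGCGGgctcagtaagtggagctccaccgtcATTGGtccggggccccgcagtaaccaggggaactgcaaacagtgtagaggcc
ACAD10/BRAP: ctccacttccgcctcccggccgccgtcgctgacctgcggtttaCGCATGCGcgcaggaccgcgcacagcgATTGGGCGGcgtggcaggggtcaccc
AIMP2/PMS2: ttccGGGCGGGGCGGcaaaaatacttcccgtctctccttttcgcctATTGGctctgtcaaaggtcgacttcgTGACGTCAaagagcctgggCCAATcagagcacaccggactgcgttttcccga

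TK1 makes thymidine kinase for DNA synthesis, and its neighbour AFMID makes arylformamidase of tryptophan breakdown. The 124 bp between them (chr17:76183315-76183438) held GC boxes and 1 TATAAA, and the peak over them was 3385 bp wide in RS4;11 cells and 2722 bp wide in the THP-1 line. MRPS12, a protein of the mitochondrial ribosome, and SARS2, the mitochondrial seryl-tRNA synthetase, were 180 bp apart (chr19:39421404-39421583), with CCAAT boxes and a GC box, under peaks of 2870 bp and 2609 bp.

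GTF3C1, a subunit of the RNA polymerase III factor TFIIIC, faced KIAA0556 across 219 bp (chr16:27561235-27561453) that held 4 kinds of motif, under peaks of 2647 bp and 2661 bp. BRAP and ACAD10 were 96 bp apart (chr12:112123761-112123856), where a CCAAT box on the minus strand ran into a GC box, under peaks of 2811 bp and 3010 bp. The mismatch repair gene PMS2 faced AIMP2, a scaffold of the tRNA synthetase complex, across 124 bp (chr7:6048762-6048885), under peaks of 2567 bp and 2743 bp. Thus each of the 5 short sequences lay inside a peak of more than 2500 bp in both lines. In all, 276 pairs in both lines had start sites 20 to 300 bp apart with no exon between them, chromosome 8 left out. Their intervening sequence had a median length of 99 bp and a median GC content of 67.5%. A GC box was found in 149 of them, a CCAAT box in 83, the ETS motif in 46 and TATAAA in 4, and 70 held none of the motifs.

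Nearly all the peaks took in exactly 2 genes (1212 RS4;11 peaks and 1167 THP-1 peaks). A further 32 and 33 took in 3 genes, and 2 peaks of RS4;11 cells took in 22. Those 2 lay on the shared 3′ exons of the protocadherin gamma cluster (PCDHGA1 to PCDHGC5, chr5:140873711-140876244 and chr5:140892058-140894457), whose genes join different first exons to common last exons, and were 2534 bp and 2400 bp wide. The peaks of 3 genes included CYB5D1/LSMD1/TMEM88, with 3881 bp in RS4;11 cells and 3433 bp in THP-1 cells. ESRRA/PRDX5/TRMT112, with the nuclear receptor gene ESRRA and the peroxiredoxin gene PRDX5, had 3151 bp in RS4;11 cells and 3488 bp in THP-1 cells. Read-through symbols, which join 2 neighbours into 1 transcript, stood beside their own part in 17 peaks of each line, and without them 12 and 13 peaks would have kept only 1 gene.

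Most of these peaks lay over the beginnings of both genes. A peak flagged for a transcript both on its 20 kb upstream side and on an exon covers its 5′ end, and by these flags 935 RS4;11 peaks (75%, 72.6 to 77.4%) and 892 THP-1 peaks (74.3%, 71.8 to 76.7%) covered the 5′ ends of at least 2 genes. A further 255 and 238 peaks covered the 5′ end of one gene and the 3′ end of another, as where a gene starts just behind the end of its neighbour. Peaks over 3′ ends only were few (29 and 14) and were narrower, with medians of 1390 bp and 1595 bp against 3032 bp and 3012 bp over both 5′ ends.

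Strands and start sites were also taken from GENCODE release 44 on GRCh37. Genes were called head-to-head when they lay on opposite strands with start sites at most 1000 bp apart, and 672 RS4;11 peaks (53.9%) and 637 THP-1 peaks (53.1%) held such a pair. With any annotated transcript start in place of the outermost one, these shares were 68.5% and 68.6%, because outermost starts that reach far into a neighbour put pairs such as BRCA1/NBR2 among the overlapping genes. Pairs on the same strand made up 250 and 233 peaks, overlapping or nested pairs on opposite strands 191 and 202, and tail-to-tail pairs, with their 3′ ends facing, 35 and 27.

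Head-to-head peaks reached into both genes by about as much as peaks of 1 gene reached into theirs, and peaks of 1 gene reached less far upstream. Here and in the comparisons below, a peak of 1 gene was marked on exons of only 1 symbol, MIR and SNOR aside. By GENCODE, a single peak lay over both starts of 1001 (RS4;11) and 960 (THP-1) head-to-head pairs of protein-coding genes. Only 672 and 637 peaks across 2 or more genes held a head-to-head pair, so some peaks of 1 gene can also cover a second start. A peak over the start of 1 such gene reached a median of 1631 bp into the gene and 805 bp upstream in RS4;11 cells (n = 6305), and in THP-1 cells 1533 bp and 749 bp (n = 6796). It reached further into the gene than upstream in 87.9% and 86.2% of peaks. Head-to-head peaks reached a median of 1530 bp into the plus-strand gene and 1549 bp into the minus-strand gene in RS4;11 cells (n = 667), and in THP-1 cells 1546 bp and 1519 bp (n = 626). Which gene of a pair is on the plus strand is arbitrary, so these medians do not show whether single peaks were even. The longer reach of each peak had a median of 1815 bp and the shorter 1323 bp in RS4;11 cells, and 1816 bp and 1293 bp for THP-1. The peak centre lay a median of 222 bp and 247 bp from the midpoint of the 2 starts, on either side. Each peak was required to touch an exon of every gene counted, which by itself sets a reach into that gene.

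**Figure D1:**
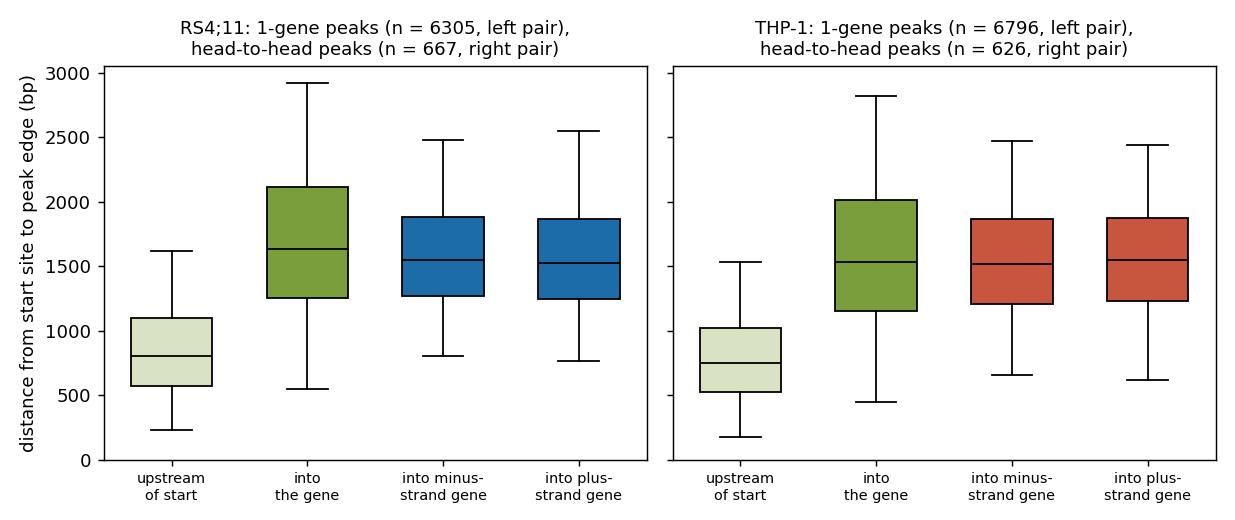
Distance in bp from the annotated start site to the edge of the H3K4me3 peak, for peaks on exons of 1 gene (upstream and into the gene) and for head-to-head peaks (into each gene of the pair), with the median, the quartiles and whiskers at the 5th and 95th percentiles. The upstream side of 1-gene peaks is short, with medians of 805 bp (RS4;11) and 749 bp (THP-1), and the other 3 boxes of each line have medians between 1519 bp and 1631 bp.

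The distance between the start sites changed the width little. The median gap was 51 bp in both lines, and the plus-strand gene started beyond the minus-strand start, leaving a gap, in 61.6% and 62.1% of pairs. In RS4;11 cells the median width ran from 2986 bp (2835 to 3101 bp) for starts less than 100 bp apart to 3210 bp (3072 to 3409 bp) for starts 100 to 200 bp apart. In THP-1 cells it ran from 2858 bp (2773 to 3186 bp) for pairs overlapping by 500 to 1000 bp to 3470 bp (2214 to 3878 bp) for starts 500 to 1000 bp apart, a class of only 14 peaks. The intervals of the medians overlapped between all classes of a line.

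The peaks across 2 or more genes were among the wide ones. Their median width was 2910 bp (95% interval 2857 to 2958 bp) for RS4;11 and 2836 bp (2769 to 2907 bp) for THP-1. Peaks on exons of a single gene had medians of 2281 bp and 2074 bp, and those over its 5′ end 2480 bp and 2303 bp. Of the RS4;11 peaks, 1091 of 1246 were 2000 bp or wider (87.6%), against 61.4% of 10043 one-gene peaks and 34.9% of all peaks (odds ratio 4.43, two-sided Fisher's exact test, adjusted p = 8.2e-85 over 6 tests). In THP-1 cells 1002 of 1200 were (83.5%), against 53.3% of 11352 and 29.6% of all peaks (odds ratio 4.43, Fisher's exact test, adjusted p = 6.3e-98). Against one-gene peaks over the 5′ end, of which 73.0% and 64.6% were as wide, the odds ratios were 2.60 and 2.77. A wide peak reaches a second gene more easily, so the rule itself favours width, and no effect of the pairing on width can be read from these tests.

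**Figure D2:**
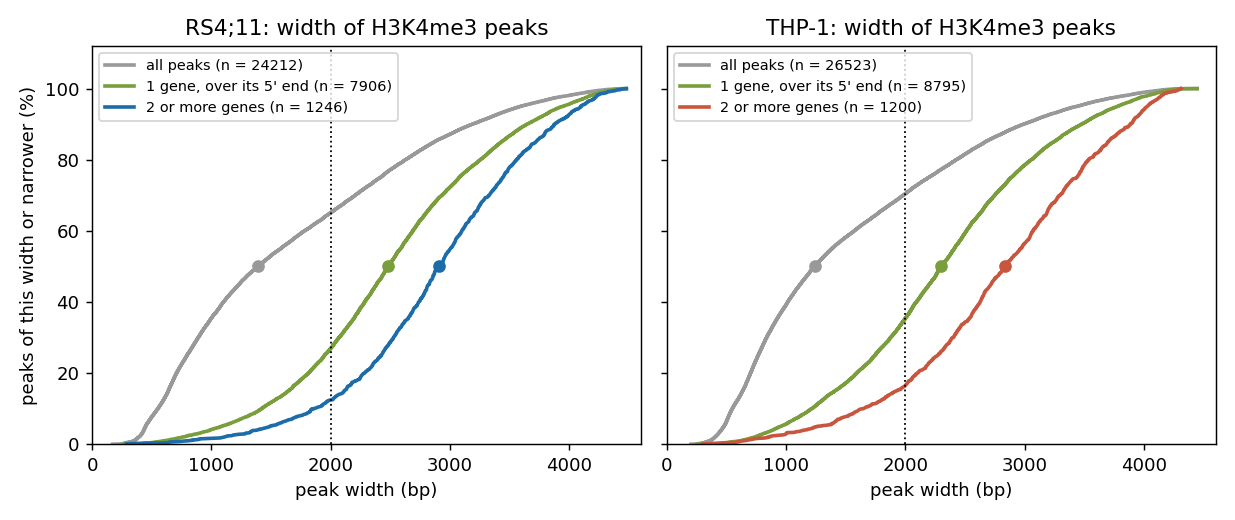
Cumulative share of H3K4me3 peaks (vertical axis, %) by width (horizontal axis, bp) for all peaks, peaks on exons of 1 gene over its 5′ end and peaks on exons of 2 or more genes, with a dot at each median and a dotted line at 2000 bp. In both lines the curve of 2 or more genes lies to the right, with medians of 2910 bp and 2836 bp, and the widest peaks are 4478 bp and 4446 bp.

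The widest peaks included promoters of genes used in most cells. The 5 widest RS4;11 peaks covered C8orf45/SNHG6 (4478 bp), which holds a host gene of small nucleolar RNA, GLT8D1/SPCS1 (4449 bp), with a signal peptidase subunit, CCDC45/DDX5 (4439 bp), with an RNA helicase, BDH2/NHEDC2 (4425 bp) and LOC100286938/VPS13A (4424 bp). In THP-1 cells they covered C2CD3/PPME1 (4312 bp), MYL6/MYL6B (4310 bp), both myosin light chains, 15-Sep/HS2ST1 (4303 bp), ATP5J/GABPA (4293 bp) and EEF1B2/NDUFS1 (4293 bp). The symbol 15-Sep stands in the file as a date, and its accession is that of SELENOF, a selenoprotein of the endoplasmic reticulum. Such date symbols touched 2 RS4;11 peaks and 7 THP-1 peaks. Among the 10, peaks across the same genes were found in the other line at C2CD3/PPME1 (4351 bp), EEF1B2/NDUFS1, a translation elongation factor facing a subunit of respiratory complex I (4204 bp), GLT8D1/SPCS1 (3980 bp) and LOC100286938/VPS13A (2891 bp). BDH2/NHEDC2 met a THP-1 peak of 2838 bp marked on NHEDC2 alone, while C8orf45/SNHG6, CCDC45/DDX5, MYL6/MYL6B, 15-Sep/HS2ST1 and ATP5J/GABPA met no peak of the other line.

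The textbook divergent pairs gave individual cases. Of 21 entries listed, 8 lay in a peak of 2 or more genes in each line, 7 of them in both. BRCA1/NBR2 had a peak of 2753 bp in the first line (chr17:41275765-41278517) and 2907 bp in the second. GOLT1B/RECQL, with a DNA helicase of the RecQ family, had peaks of 3674 bp (RS4;11) and 3551 bp (THP-1). C11orf10/FEN1, with the flap endonuclease of replication, had 3182 bp and 3682 bp. SURF1/SURF2 lay in a single peak of 2285 bp in RS4;11 cells, whereas the THP-1 peak there, 1247 bp wide, was marked on SURF1 alone. COL4A1/COL4A2, the divergent collagen IV genes, had a peak over both starts in THP-1 cells only (2341 bp), with no overlapping peak in RS4;11 cells. A peak on an exon of only one symbol was found at CHEK1 (3332 bp and 3348 bp), BRCA2 (3665 bp and 2661 bp), FANCF (3123 bp and 2918 bp) and HDAC11 (2055 bp and 2109 bp). A further 8 entries, among them ATM/NPAT, HSPD1/HSPE1, TAP1/PSMB9, MCM4/PRKDC, PPAT/PAICS, GART/SON and POLR2A, were listed with no exon peak in either line.

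The absence of peaks at such genes was not limited to pairs. Looked up after the values had been seen, ACTB, GAPDH and EEF1A1, which are used in nearly every cell, and MYC had no H3K4me3 peak over a 5′ end in either line. No peak was wider than 4478 bp (RS4;11) or 4446 bp (THP-1). Why these starts lack a listed peak was not tested, so a pair without a peak here cannot be read as a pair without the mark. The markers of lineage did not follow the labels either. Exon peaks were listed for PAX5 and CSF1R in THP-1 cells only, SPI1 in RS4;11 cells only, CD14 in both, and VPREB1, RAG1 and MPO in neither.

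Seen from the annotation, most head-to-head pairs had a single peak over both starts. Of 1395 annotated head-to-head pairs of protein-coding genes, 1001 had a single peak over both starts in RS4;11 cells (71.8%, 69.3 to 74.1%) and 960 had one in THP-1 cells (68.8%, 66.3 to 71.2%), 854 of them in both lines. A peak over one start alone was found at 19 and 50 pairs, and separate peaks over each start at 6 pairs in each line. Starts of a pair lie at most 1000 bp apart, while one-gene peaks over the 5′ end had median widths of 2480 bp (RS4;11) and 2303 bp (THP-1). A peak over one start therefore mostly reaches the other, so the joint cover cannot be read as a trait of paired promoters. No peak within 1 kb was listed for 358 and 346 pairs, 245 of them in both lines. Between the lines, 97 pairs had a single peak in RS4;11 cells and none within 1 kb in THP-1 cells, and 90 pairs the reverse. Of the genes in such pairs, 72.7% had their start in an RS4;11 peak and 70.9% in a THP-1 peak, against 41.5% and 45.0% of the other protein-coding genes.

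The peaks across 2 or more genes were mostly shared by the lines. For RS4;11, 1108 of 1246 overlapped an H3K4me3 peak of THP-1 cells by at least 1 bp (88.9%, 87.1 to 90.5%), against 79.1% of one-gene peaks (odds ratio 2.13, Fisher's exact test, adjusted p = 4.3e-18) and 55.8% of all peaks. In THP-1 cells 1035 of 1200 overlapped a peak of RS4;11 cells (86.2%, 84.2 to 88.1%), against 69.8% of one-gene peaks (odds ratio 2.71, Fisher's exact test, adjusted p = 7.2e-37) and 51.8% of all peaks. The first difference depended on the comparison. Against one-gene peaks over the 5′ end, of which 90.0% were shared, the RS4;11 odds ratio was 0.893 (Fisher's exact test, p = 0.25), while in THP-1 cells, with 76.9% shared, it stayed above 1 (1.88, Fisher's exact test, p = 2.0e-14).

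Sharing was lower for the narrowest and the widest peaks of both kinds. Between 2000 and 2500 bp, 96.5% of the RS4;11 peaks and 91.1% of the THP-1 peaks across 2 or more genes were shared, against 95.5% and 86.0% of the one-gene peaks over the 5′ end. Below 1000 bp the shares were 50% of 20 and 41.2% of 34. At 3500 bp or wider they were 77.5% of 275 (72.2 to 82.0%) and 84.6% of 259 (79.7 to 88.4%), and those of one-gene peaks over the 5′ end 79.0% and 77.6%. Within a class of width the 2 kinds of peak differed by less than 8 percentage points in THP-1 cells, and by less than 7 in RS4;11 cells from 1000 bp up. In THP-1 cells peaks across 2 or more genes had the higher share in every class but 1500 to 2000 bp (74.3% against 74.4%). At 3000 to 3500 bp it was 94.3% (90.8 to 96.5%) against 87.1% (85 to 89%). In RS4;11 cells the direction varied between the classes.

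**Figure D3:**
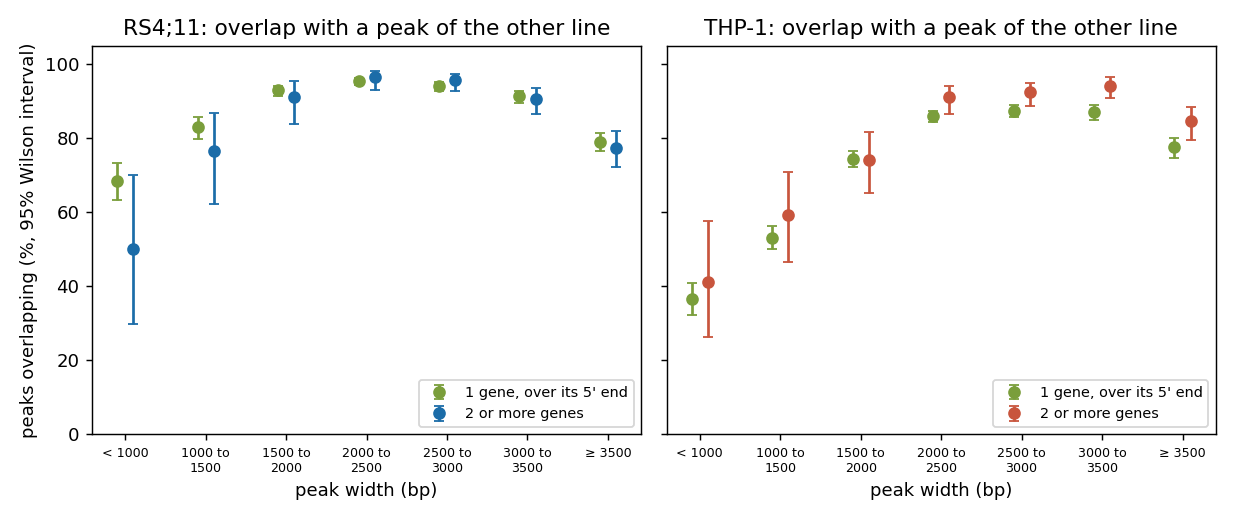
Share of H3K4me3 peaks that overlap a peak of the other line (vertical axis, %, with 95% Wilson intervals) by class of peak width (horizontal axis, bp), for peaks on exons of 1 gene over its 5′ end and of 2 or more genes. For peaks of 2 or more genes, sharing is above 90% between 2000 and 3500 bp, and at 3500 bp or wider it is 77.5% (RS4;11) and 84.6% (THP-1).

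Most shared peaks held the same genes in both lines. Of the RS4;11 peaks, 990 overlapped a THP-1 peak across the same genes (79.5%), 97 overlapped peaks on exons of only 1 of the genes, 16 overlapped separate peaks that together touched both genes, and 138 overlapped none. Of the THP-1 peaks, 992 matched the same genes (82.7%), 37 met peaks on exons of 1 gene and 165 met none. The gene sets found in both lines numbered 985, which is 79.3% of those of RS4;11 cells and 82.5% of those of THP-1 cells. Over 990 matched pairs of peaks, the RS4;11 peak differed from the THP-1 peak by a median of -32 bp (-59 to -10 bp), and 75.1% of pairs differed by 500 bp or less. Spearman's rho of the 2 widths was 0.715 across these peaks, which share genes and annotation and are not independent replicates.

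Peaks without a partner had different widths in the lines. The 138 RS4;11 peaks that overlapped no THP-1 peak had a median width of 3422 bp (3165 to 3574 bp), and 62 of them were 3500 bp or wider. The 165 such peaks of THP-1 cells had a median of 2231 bp (1997 to 2676 bp), and 40 were 3500 bp or wider. The 5 widest in RS4;11 cells included, besides C8orf45/SNHG6 and CCDC45/DDX5, CEP76/PSMG2 (4391 bp), S100PBP/YARS (4385 bp), with tyrosyl-tRNA synthetase, and RPL4/ZWILCH (4345 bp), with a ribosomal protein. In THP-1 cells they included ATG3/SLC35A5 (4265 bp), with an enzyme of autophagy, and C22orf13/SNRPD3 (4193 bp), with a core protein of the spliceosome. Many of these genes are used in most cells, and whether their starts lacked the mark or only a listed peak in the other line was not tested.

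By class of gene, 1016 RS4;11 peaks (81.5%) and 939 THP-1 peaks (78.2%) joined 2 protein-coding genes. A protein-coding and a noncoding gene were joined in 135 and 161 peaks, and 2 noncoding genes in 11 and 14. Of the THP-1 peaks, 70.8% (63.4 to 77.3%) of coding with noncoding and 89.2% (87.1 to 91.1%) of coding with coding ones overlapped a peak of the other line. For RS4;11 these shares were 91.9% (86.0 to 95.4%) and 88.8% (86.7 to 90.6%).

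Gene groups were set beside all genes, with no test. Of all 11047 genes with an exon peak in RS4;11 cells, 2463 lay in a peak of 2 or more genes (22.3%), and of 12210 in THP-1 cells, 2359 did (19.3%). Genes of the mitochondrial ribosome came to 32 of 73 (43.8%, 33.0 to 55.2%) and 30 of 71 (42.3%, 31.5 to 53.8%). Examples are MRPL46/MRPS11, where both partners belong to the mitochondrial ribosome (2735 bp and 2652 bp), MRPL47/NDUFB5 (2980 bp and 4066 bp) and MRPL36/NDUFS6 (4000 bp and 4082 bp), both with a subunit of complex I. Subunits of complex I (NDUF) came to 15 of 39 (38.5%) and 14 of 39 (35.9%).

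Of 60 DNA repair and replication genes listed, 52 and 51 had an exon peak, and 18 (34.6%, 23.2 to 48.2%) and 17 (33.3%, 22 to 47%) of these shared it with a second gene. CHEK2, the checkpoint kinase, shared its peak with HSCB (2961 bp and 2898 bp), and MCM7, a subunit of the replicative helicase, with AP4M1 (4313 bp and 3770 bp). The polymerase gene POLE shared with PXMP2 (3124 bp and 2531 bp), and the ligase gene LIG4 with ABHD13 (2726 bp and 2555 bp). PCNA, the sliding clamp, was counted at a different site in each line. In RS4;11 cells it shared a peak with CDS2 (chr20:5106628-5109257), and this peak overlapped a THP-1 peak. In THP-1 cells it shared a peak with PCNAAS (chr20:5097485-5101466), and that peak overlapped no RS4;11 peak.

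Zinc finger genes (ZNF) came to 46 of 381 (12.1%, 9.17 to 15.7%) and 53 of 401 (13.2%, 10.2 to 16.9%). Cytosolic ribosomal protein genes (RPL or RPS) came to 25 of 80 (31.2%) and 23 of 75 (30.7%), histone genes to 8 of 20 and 12 of 26, and proteasome genes (PSM) to 10 of 42 and 7 of 41. Uncharacterised genes with LOC symbols reached 92 of 198 (46.5%) and 100 of 220 (45.5%), and those with open reading frame symbols (C#orf#) 210 of 625 (33.6%) and 202 of 672 (30.1%). Few genes of lineage were found. Of the B-lineage list, 0 of 9 and 1 of 10 genes with an exon peak lay in a peak of 2 or more genes, and of the myeloid list 0 of 8 and 0 of 12. The one was RAG2 with C11orf74 in THP-1 cells (1664 bp). By its flags that peak covered a 5′ end and a 3′ end, and which gene each belonged to is not given here. It need not lie over the start of RAG2. With so few genes, shares of up to 29.9% and 32.4% in RS4;11 cells, and 24.2% for the myeloid list in THP-1 cells, lie within the 95% Wilson intervals.

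Genes of the H3K4 methyltransferase complexes numbered 4 of 14 for RS4;11 (28.6%, 11.7 to 54.6%) and 2 of 14 for THP-1 (14.3%, 4.01 to 39.9%). Both intervals take in the share of all genes, 22.3% and 19.3%. MLL2/PRKAG1 (3273 bp and 2538 bp) and CXXC1/MBD1 (2805 bp and 2836 bp) were found in both lines, and MEN1 with MAP4K2 (2574 bp) and MLL4 with ZBTB32 (4047 bp) shared a peak in RS4;11 cells only, although both of these peaks overlapped a THP-1 peak. In all 4 the peak covered the 5′ end of one gene and the 3′ end of the other, which lie on the same strand. Which gene was at its 5′ end is not given here, so these peaks need not lie over the starts of the methyltransferase complex genes.

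**Figure D4:**
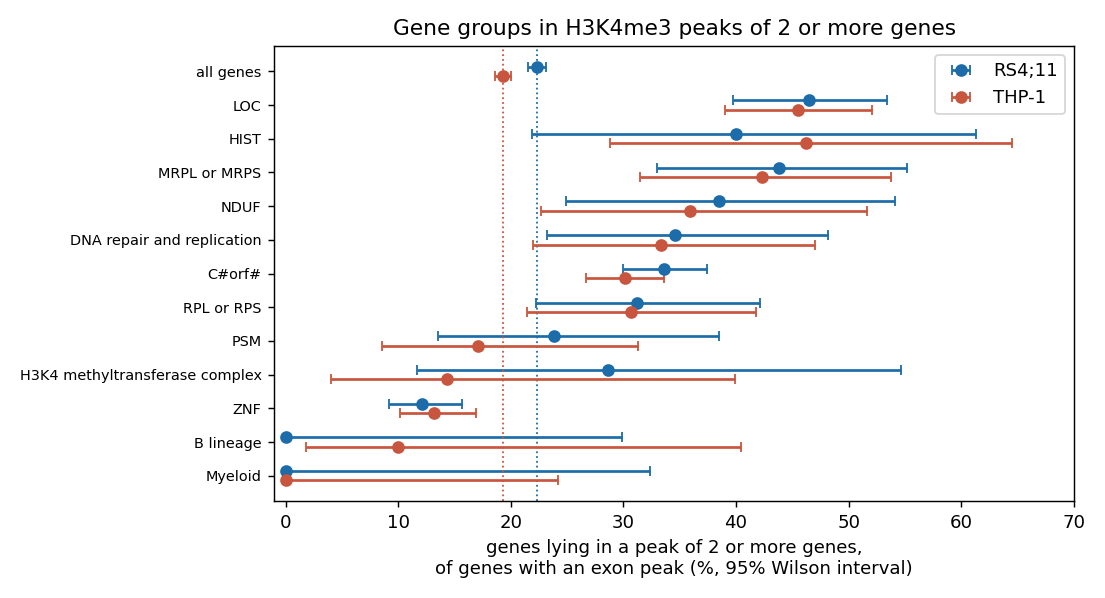
Share of genes that lie in a peak of 2 or more genes, of the genes with an H3K4me3 peak on an exon (horizontal axis, %, with 95% Wilson intervals), for each gene group (vertical axis) in RS4;11 and THP-1 cells, with dotted lines at all genes (22.3% and 19.3%). Mitochondrial ribosomal genes (43.8% and 42.3%) lie to the right of the lines and ZNF genes (12.1% and 13.2%) to the left.

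By chromosome, the share of exon peaks that took in 2 or more genes was highest on chromosome 16 in RS4;11 cells (15.6%, 12.7 to 18.9%) and on chromosome 11 in THP-1 cells (13.6%, 11.3 to 16.4%). It was lowest on chromosome 18 in both lines (6.29%, 3.45 to 11.2%, and 5.85%, 3.30 to 10.2%), where only 10 and 11 such peaks lay.

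The sequence around head-to-head starts was GC-rich like that of other marked promoters. Windows of 300 bp centred midway between the starts had a median GC content of 66.0% for RS4;11 (n = 672) and 65.7% for THP-1 (n = 636), against 67.7% and 67.3% around the start of one-gene peaks and 62.7% around 20091 protein-coding starts of the whole annotation. The observed over expected ratio of CpG was 0.872 and 0.869, against 0.859 and 0.843, and 0.732. The ETS motif CCGGAAG was in 29.3% (26.0 to 32.9%) and 29.6% (26.1 to 33.2%) of the head-to-head windows. It was in 18.5% and 17.0% of the one-gene windows and in 12.1% of all coding starts. TATAAA went the other way, with 1.93% and 2.04% against 3.90% and 4.37%, and 9.23% of all coding starts.

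The NRF1 motif CGCATGCG was in 6.10% and 5.97% of the head-to-head windows, against 3.60% and 3.37% of the one-gene windows and 2.42% of all coding starts. The GC box (73.5% and 71.5% against 71.7% and 70.4%, and 54.1% of all) and the CCAAT box (35.6% and 35.4% against 33.7% and 33.1%, and 33.7% of all) differed by less than 3 percentage points between head-to-head and one-gene windows. The YY1 motif AAGATGGC came to 6.25% and 6.45% against 5.68% and 4.99%, and 3.61% of all. TGACGTCA came to 3.87% and 3.77% against 3.16% and 2.99%, and 2.16% of all. CTCGCGAG came to 2.38% and 2.67% against 1.68% and 1.47%, and 1.22% of all. These are matches of letters on either strand, and the windows are centred between 2 starts in one case and on a start in the other.

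**Figure D5:**
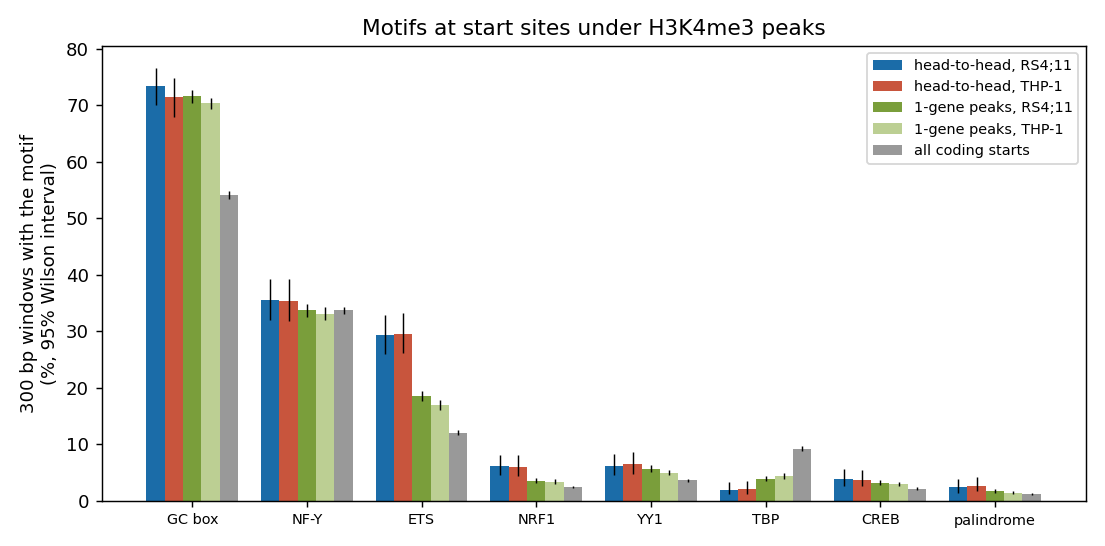
Share of 300 bp windows that hold each motif on either strand (vertical axis, %, with 95% Wilson intervals) for head-to-head starts and the starts of one-gene peaks in each line and for all protein-coding starts; motifs (horizontal axis) are named by the factor or box they are known for. The ETS motif is in 29.3% and 29.6% of head-to-head windows against 18.5% and 17.0% of one-gene windows.

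Few of these peaks overlapped a WDR5 peak, as was so for the H3K4me3 peaks of each line as a whole. Of the 1246 RS4;11 peaks, 6 overlapped a WDR5 peak of the same line (0.482%, 0.221 to 1.05%), against 26 of 10043 one-gene peaks (0.259%) and 0.24% of all peaks. In THP-1 cells 1 of 1200 did (0.0833%, 0.0147 to 0.471%), against 10 of 11352 one-gene peaks (0.0881%) and 0.102% of all. Neither difference passed the test (odds ratios 1.86 and 0.946, Fisher's exact test, adjusted p = 0.19 and 1). Counting WDR5 peaks within 1000 bp, the RS4;11 numbers were 9 and 33 (odds ratio 2.21, unadjusted p = 0.044 by Fisher's exact test).

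The 7 promoters with a WDR5 peak held genes of the ribosome, splicing and mitosis among others. The RS4;11 ones were EPN1/U2AF2, with the large subunit of the splicing factor U2AF (H3K4me3 peak 4014 bp, WDR5 peak 292 bp), MRPL41/PNPLA7 (3425 bp and 488 bp), ASB7/LINS1 (3356 bp and 399 bp), CCBL2/RBMXL1 (3175 bp and 339 bp), MRP63/SKA3, a mitochondrial ribosomal protein facing a kinetochore protein (3072 bp and 452 bp), and C15orf37/ST20 (2773 bp and 328 bp). In THP-1 cells it was IQCG/RPL35A, with a protein of the large ribosomal subunit (3884 bp and 619 bp). Of these 7, 5 held 5′ ends in both genes on opposite strands, CCBL2/RBMXL1 held both 5′ ends on the same strand, and EPN1/U2AF2 held the 5′ end of one gene and the 3′ end of the other. Which of EPN1 and U2AF2 was at its 5′ end is not given here, so that peak need not lie over the start of U2AF2. EPN1/U2AF2 was the only one of the 7 whose H3K4me3 peak met no H3K4me3 peak of the other line.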

How the data were processed

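H3K4me3 and WDR5 ChIP-seq of RS4;11 and THP-1 cells, 4 samples, was analysed from the peak lists as deposited. The authors fragmented chromatin with micrococcal nuclease for H3K4me3 and by sonication for WDR5, aligned reads to hg19 with Eland (2 mismatches, unique hits), called peaks with MACS at default settings and joined peaks to transcripts with a script. The submitters' processing notes name CASAVA 1.7 and 1.8.2. The deposited files give positions and say for each transcript whether the peak meets an exon, an intron or the 20 kb on either side, with no counts, heights or p-values. The depth is therefore unknown, and reads of repeats were removed.

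Lines were reduced to distinct peaks, with width as end minus start plus 1. Samples were grouped by cell line and antibody in the labels. Peaks on exons of 2 or more genes were compared with peaks on exons of 1 gene by two-sided Fisher's exact tests over peaks, adjusted by Benjamini-Hochberg over 6 tests. Both kinds were set by the symbols with an exon mark, so a peak of 1 gene can touch a second gene of GENCODE. Overlap meant at least 1 shared bp. Genes, strands and starts came from GENCODE release 44 on GRCh37. Shares have 95% Wilson intervals and medians have 95% order-statistic intervals. The gene lists and the genes named (textbook pairs, the 5 widest, the 5 with most genes, the 5 widest without a partner, those with WDR5, and the sequences) followed rules chosen with earlier results of these data known. The functions were tested on simulated data. Alternatives changed the definitions of a member, a wide peak, an overlap, a pair and the peaks compared. Python 3.11.15, numpy 2.4.6, scipy 1.17.1 and matplotlib 3.10.9 were used. Some genes covered by these rules are not reported here.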

Additional observations from a re-analysis of the deposited data

Results flagged for a closer look

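The overlap with the other line differed between RS4;11 and THP-1 cells by class of gene. In RS4;11 cells 124 of 135 coding with noncoding peaks (91.9%) and 902 of 1016 coding with coding peaks (88.8%) overlapped a THP-1 peak, an odds ratio of 1.42. In THP-1 cells 114 of 161 (70.8%) and 838 of 939 (89.2%) overlapped an RS4;11 peak, an odds ratio of 0.292. The odds ratios differed between the lines (Zelen's exact test over peaks, p = 1.6e-05, adjusted p = 6.6e-05 over 4 such tests). This comparison was chosen after the shares had been seen. The THP-1 coding with noncoding peaks were narrower (median 2576 bp against 2941 bp), and the part of width in the difference was not tested. The same exact test gave adjusted p = 1 for the share of peaks 2000 bp or wider, 0.12 for the share overlapping the other line against one-gene peaks, and 1 for WDR5.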

How the results depend on the processing

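Of 54 alternatives, 37 left the value or call where it was. The direction turned in 3, all in RS4;11 cells. Overlap with the other line had an odds ratio of 0.893 against one-gene peaks over the 5′ end, and of 0.983 when only peaks over both 5′ ends were set against them, an alternative chosen after seeing the data. WDR5 overlap had an odds ratio of 0 for widths of 1000 to 2000 bp, where 0 of 135 peaks overlapped against 8 of 2684 one-gene peaks, too few to show a direction. Counted within 1000 bp, the RS4;11 WDR5 overlap kept its direction, with an odds ratio of 2.21 against 1.86. There p was 0.044 by Fisher's exact test before any adjustment. In THP-1 cells the overlap with the other line no longer passed for widths of 1000 to 2000 bp (odds ratio 1.30). The causes were not tested. The share of members moved from 5.15% (RS4;11) and 4.52% (THP-1) to 4.33% and 3.64% with protein-coding genes only. With the exons of protein-coding genes in GENCODE in place of the deposited exon marks, it was 8.64% and 7.85%. Of exon peaks, which have a smaller denominator, it was 11.0% and 9.54%. The head-to-head share moved from 53.9% and 53.1% to 44.9% and 43.9% at 500 bp, 58.8% and 57.9% at 2000 bp, and 68.5% and 68.6% with any transcript start. A stricter peak threshold could not be tried, because the files give no strength, and no replicate could be left out of groups of 1. No paired analysis was possible because each group holds 1 sample.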
